A study of Mus musculus with 20 samples.

Results

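A set of 31 genes of glycolysis and of the response to low oxygen was followed in mouse flank tissue after Ad-VEGF-A164, an adenovirus that carries vascular endothelial growth factor A in its VEGF-A164 form into the cells it infects. These genes were listed by symbol, not by their values, and fall into 16 glycolytic enzymes, 3 transporters, 3 regulators of flux, 2 subunits of hypoxia-inducible factor (HIF), 2 HIF hydroxylases and 5 other HIF targets. Of the 31, 28 had a probe set that carried their symbol alone, and each was read from the one with the highest mean signal. All 28 were among the 13594 genes tested, of 18193 genes with such a probe set. No probe set carried the symbol of Gpi1 or Eno1 alone in the annotation used here, and Gapdh was read only from the control probe sets of the array.

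RNA was measured on 20 Affymetrix Mouse Genome 430 2.0 arrays as MAS5 signals, a linear brightness per probe set that the authors scaled to the same target on each array. By the labels, 5 arrays were of flank tissue at day 0 and serve as control, 4 came from flank tissue taken on day 5 with the vector, and days 20 and 60 had 5 each. Arrays of a group are named here by the letter of their title. 1 further array carried a title of day 5 (letter A) but a source name and tissue of the day 0 control, so it entered no comparison. Strain, sex, age and vector dose were not given in the sources used here. Separate animals are not stated for the arrays, so p-values measure the spread between these arrays, which may be technical. The control was of day 0 only and no empty vector is named, so effects of VEGF-A, of injecting any vector and of harvest time cannot be told apart. The number of arrays limits the precision.

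Glycolysis splits glucose into pyruvate in the cytosol, and lactate dehydrogenase turns pyruvate into lactate where it is not burned in mitochondria. Most of its steps are run by sister enzymes that differ between tissues, such as the muscle and platelet forms of phosphofructokinase. In low oxygen the HIF alpha subunits escape the prolyl hydroxylases that mark them for destruction, pair with ARNT and bind short elements with the core ACGTG or GCGTG, which raises many glycolytic genes as well as Bnip3, Ndrg1, Ddit4 and Car9. HIF activity is set largely by the stability of the protein, so the RNA of Hif1a is not a measure of it.

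That core was searched on both strands in the promoter of each gene, taken as 250 bases before to 50 bases after the start in the RefSeq table of GRCm38.p6. The table held 28 of the 31 genes, and 26 of these (92.9%) had a match in at least 1 of their promoters, against 12628 of all 27025 genes in the table (46.7%). By promoter, 34 of 43 (79.1%) held a match, against 43.8% of all 32851. A match is a run of 5 letters and shows no binding. Both cores hold the bases CG, and the genes were not compared with promoters of like CG content. The higher share among the listed genes is thus a description only. The 250 bases before the start are printed for 6 genes whose RNA moved in different directions, so that genes with the same element can be read beside each other. Capitals mark the core on the printed strand or, as CACGT or CACGC, on the other strand, and where both strands match around the same central bases the run reads CACGTG and counts as 2 matches. The sequences run 5′ to 3′ along the gene. In the order shown they are chr7:138909507-138909756 (minus strand) for Bnip3, chr12:54203875-54204124 (minus) for Egln3, chr2:11502091-11502340 (minus) for the second listed promoter of Pfkfb3, chr7:46845554-46845803 (plus) for the first listed promoter of Ldha, chr13:6648772-6649021 (minus) for Pfkp and chr12:73907617-73907866 (plus) for Hif1a.
Bnip3: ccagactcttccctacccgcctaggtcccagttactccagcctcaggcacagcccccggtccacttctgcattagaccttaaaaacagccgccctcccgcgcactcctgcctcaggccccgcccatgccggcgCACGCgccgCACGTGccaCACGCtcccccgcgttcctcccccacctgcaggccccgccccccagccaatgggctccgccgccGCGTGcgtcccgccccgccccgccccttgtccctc
Egln3: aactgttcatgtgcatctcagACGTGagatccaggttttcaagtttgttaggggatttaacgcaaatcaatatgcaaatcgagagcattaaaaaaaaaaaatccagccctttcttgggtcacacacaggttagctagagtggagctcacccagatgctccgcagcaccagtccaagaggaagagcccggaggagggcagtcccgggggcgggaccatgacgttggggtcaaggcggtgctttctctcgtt
Pfkfb3: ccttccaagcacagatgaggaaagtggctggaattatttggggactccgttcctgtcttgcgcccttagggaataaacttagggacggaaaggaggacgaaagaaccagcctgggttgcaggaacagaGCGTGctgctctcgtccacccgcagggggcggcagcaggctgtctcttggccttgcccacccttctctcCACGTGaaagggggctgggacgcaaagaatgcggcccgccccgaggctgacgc
Ldha: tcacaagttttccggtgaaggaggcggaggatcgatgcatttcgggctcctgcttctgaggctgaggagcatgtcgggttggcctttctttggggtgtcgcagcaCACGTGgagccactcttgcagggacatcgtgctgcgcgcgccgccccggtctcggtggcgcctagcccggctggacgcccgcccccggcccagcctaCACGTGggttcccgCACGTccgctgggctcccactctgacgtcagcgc
Pfkp: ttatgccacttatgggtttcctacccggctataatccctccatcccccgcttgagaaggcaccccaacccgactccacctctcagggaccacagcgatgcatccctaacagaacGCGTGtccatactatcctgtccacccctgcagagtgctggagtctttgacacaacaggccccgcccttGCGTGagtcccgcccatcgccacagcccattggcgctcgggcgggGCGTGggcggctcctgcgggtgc
Hif1a: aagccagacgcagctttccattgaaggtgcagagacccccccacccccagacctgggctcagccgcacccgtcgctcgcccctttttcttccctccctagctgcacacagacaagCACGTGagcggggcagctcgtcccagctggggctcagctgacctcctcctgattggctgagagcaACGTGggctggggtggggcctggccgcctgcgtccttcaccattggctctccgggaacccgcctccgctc
Over the full window of 300 bases, Ldha held 7 matches in this promoter, Bnip3 5, Pfkfb3 4, Pfkp 4, Hif1a 3 and Egln3 1. Bnip3, Egln3, Pfkfb3 and Ldha are genes that fell on day 5 and Pfkp and Hif1a are genes that rose, by the tests given with each gene. Promoters with the core were found on both sides, which was nearly fixed in advance, as 26 of the 28 genes in the table held a match. For Pfkfb3 and Ldha the listed promoter with more matches was the one printed.

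On day 5, 13 of the 28 genes were lower than in control, 4 were higher and 11 did not pass (limma on log2(signal + 100), Benjamini-Hochberg adjusted p under 0.05 over all 13594 genes). Over all genes tested, 17.5% were called lower and 16.8% higher, so the share of lower calls among the 28 was above that of all genes and the share of higher calls was close to it. Their median log2 change was -0.42, beside -0.07 for all genes. On day 20, 9 genes were lower, 6 higher and 13 did not pass, against 14.5% lower and 15.6% higher over all genes, and the median log2 change was -0.33 beside -0.06. By day 60 only Pfkfb3 was still called lower and no gene was called higher by limma, against 0.765% lower and 0.368% higher over all genes. Centring the arrays on their 75th percentile gave 30 higher and 107 lower calls over all genes on day 60, in place of 50 and 104. That background rested on single arrays more than on the scaling: it was 326 higher and 267 lower without control B, 188 and 177 without day 60 C, 4 and 19 without control A, and 0 and 2 in a fit of only the compared groups. At an unadjusted p under 0.05, 2 of the 28 genes were higher and 3 lower on day 60. Without control B 1 gene, Ddit4, was higher on day 60, and without day 20 C or day 60 B 2 genes, Pfkfb3 and Aldoc, were lower. Signals of all arrays of a group lay below all controls for 9, 6 and 1 of the 28 genes on days 5, 20 and 60, and above all controls for 3, 4 and 0. The share over all genes without such overlap was not counted, so these counts have no background to be read against. The 3 comparisons share the same control arrays. Because fold changes were taken on log2(signal + 100), those of genes with low signal are understated.

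**Figure D1:**
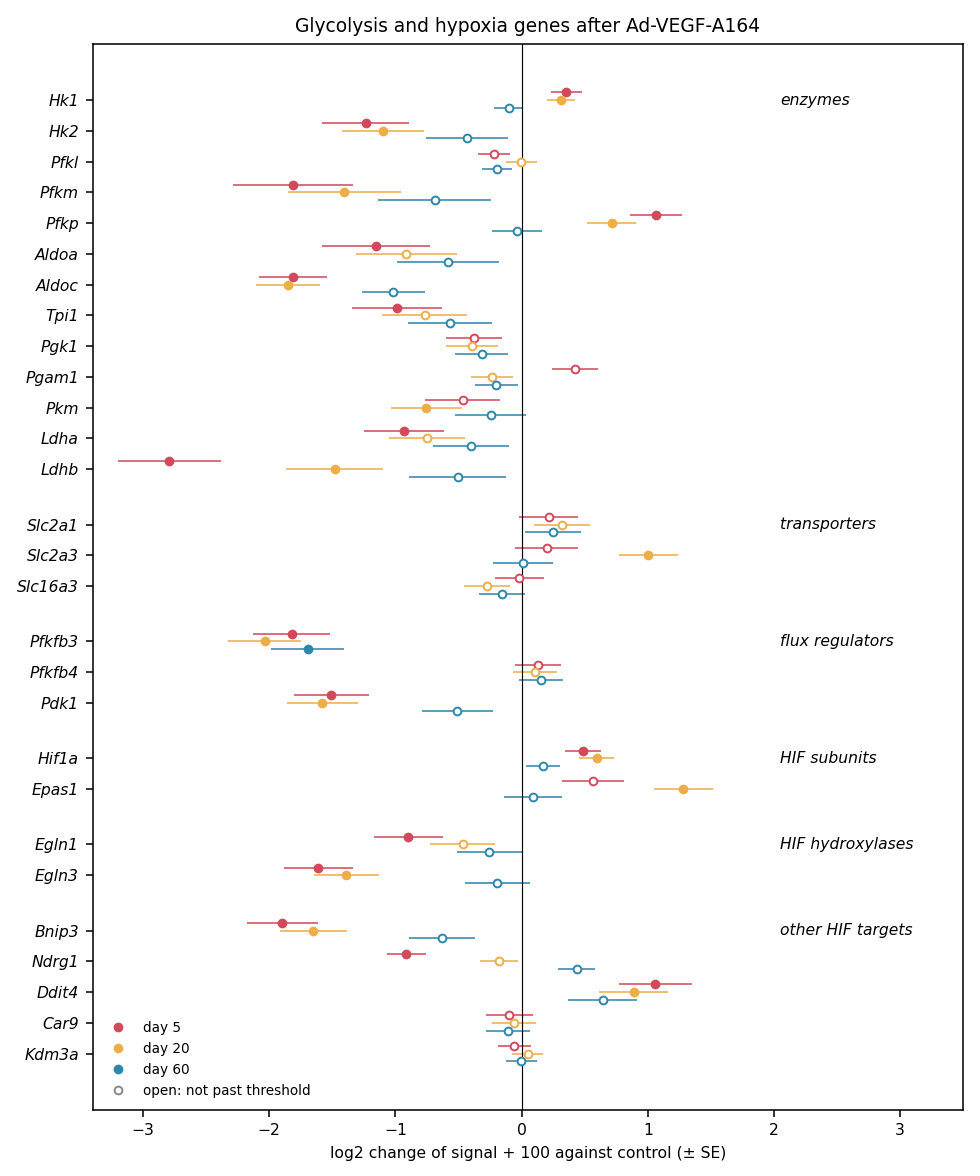
Log2 change of signal + 100 against control (x axis, ± SE from the fit) for each of the 28 tested genes, grouped by role, on day 5 (4 arrays), day 20 (5) and day 60 (5) against 5 control arrays. Filled points passed an adjusted p under 0.05 and open points did not. Most enzymes lie left of 0 on days 5 and 20, Hk1, Pfkp, Hif1a and Ddit4 lie right of it on both days, and the only filled point of day 60 is Pfkfb3.

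Among the enzymes, 7 of 13 fell on day 5 and 2 rose, against 17.5% lower and 16.8% higher over all genes. On day 20 the counts were 5 and 2, against 14.5% and 15.6%. The share of enzymes that rose was thus close to that of all genes on both days, and the share that fell was above it. None of the 13 passed on day 60 (limma), when Aldoc alone had an unadjusted p under 0.05, with a log2 change of -1.02 and an adjusted p of 0.0567. Their median log2 change was -0.93 on day 5, -0.75 on day 20 and -0.40 on day 60. The genes that rose were Hk1 and Pfkp, which make the hexokinase found in most tissues and the platelet form of phosphofructokinase. Those that fell on day 5 were Hk2, Pfkm, Aldoa, Aldoc, Tpi1, Ldha and Ldhb, and on day 20 Hk2, Pfkm, Aldoc, Ldhb and Pkm.

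Hexokinase traps glucose in the cell as glucose 6-phosphate, and Hk2 is the form of skeletal muscle and fat. Its signal was 25879, 10372, 14792, 18780 and 22437 on control arrays A to E, 4775, 6764, 11065 and 8374 on day 5 arrays B to E, 10909, 4682, 6430, 10029 and 10800 on day 20 arrays A to E and 16548, 6620, 20873, 16794 and 9713 on day 60 arrays A to E. Control B lay within the range of days 5 and 20, and the other 4 controls lay above all arrays of those days. Hk2 was 2.36-fold lower on day 5 (log2 change -1.24 ± 0.34 SE, adjusted p 0.00912) and 2.14-fold lower on day 20 (log2 -1.10 ± 0.32, adjusted p 0.0148), and without day 20 B the second value was log2 -0.90 with an adjusted p of 0.0512. Hk1, by contrast, rose little, from 2537 to 3390 over the controls to 3559 to 4303 on day 5, with no overlap, and 3246 to 4824 on day 20. These were log2 changes of 0.36 ± 0.12 (adjusted p 0.0277) and 0.31 ± 0.11 (adjusted p 0.0438). Both calls were lost without single arrays: that of day 5 without control E, day 5 B or day 5 E (adjusted p up to 0.0877), and that of day 20 without any of 9 arrays (adjusted p up to 0.137).

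Phosphofructokinase commits glucose to glycolysis, and its 3 forms did not move together. Pfkm, the muscle form, had signals of 24733, 11512, 14618, 20301 and 24164 on control arrays A to E, 2920, 5207, 7611 and 5973 on day 5 B to E, 8980, 3497, 5281, 7151 and 12489 on day 20 A to E and 16588, 2770, 22276, 17176 and 10301 on day 60 A to E. Every day 5 array lay below every control, while day 20 E and control B overlapped and day 60 B fell to the level of day 5. Pfkm was 3.51-fold lower on day 5 (log2 -1.81 ± 0.48, adjusted p 0.00622) and 2.65-fold lower on day 20 (log2 -1.41 ± 0.45, adjusted p 0.0228), the latter lost without control A, control E, day 20 B or day 20 C (adjusted p up to 0.0731). Pfkp, the platelet form, read 2352, 1940, 1727, 1645 and 1765 in the controls, 2374, 5028, 4499 and 4837 on day 5 and 2771, 4306, 2621, 2377 and 4050 on day 20. All arrays of both days were above all controls, with day 5 B and day 20 D only just above control A. It was 2.09-fold higher on day 5 (log2 1.06 ± 0.21, adjusted p 0.000598) and 1.64-fold higher on day 20 (log2 0.71 ± 0.20, adjusted p 0.00953), the latter lost with the mean of all its probe sets (log2 0.08, adjusted p 0.688), and its day 60 range of 1546 to 2073 lay within or below that of the controls. Pfkl, the liver form, passed on no day on its chosen probe set (log2 -0.22, 0.00 and -0.20). With the mean of all its probe sets, limma called it lower on day 5 (log2 -0.30, adjusted p 0.0499) and day 20 (log2 -0.30, adjusted p 0.0390). With array weights it was lower on day 5 (log2 -0.32, adjusted p 0.0227).

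Aldolase cleaves fructose 1,6-bisphosphate. Aldoc, the form best known from brain, gave 2958, 2672, 1580, 1651 and 2541 in the controls, 579, 560, 474 and 627 on day 5, 645, 415, 902, 435 and 426 on day 20 and 579, 1912, 937, 1211 and 949 on day 60. No array of day 5 or day 20 reached the lowest control, and on day 60 only array B did. The fall was 3.51-fold on day 5 (log2 -1.81 ± 0.27, adjusted p 4.16e-05) and 3.61-fold on day 20 (log2 -1.85 ± 0.25, adjusted p 1.88e-05). Aldoa, the form of muscle and most other tissues, spanned 54323 to 89362 in the controls, 17095 to 54504 on day 5, 22358 to 59433 on day 20 and 15287 to 107148 on day 60. It was 2.23-fold lower on day 5 (log2 -1.16 ± 0.43, adjusted p 0.0428) and did not pass on day 20 (log2 -0.91 ± 0.40, adjusted p 0.0954). The day 5 call was lost when any of 7 arrays was left out: control A, B, D or E or day 5 B, C or E, with an adjusted p of up to 0.165 (log2 -0.84, without day 5 B).

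**Figure D2:**
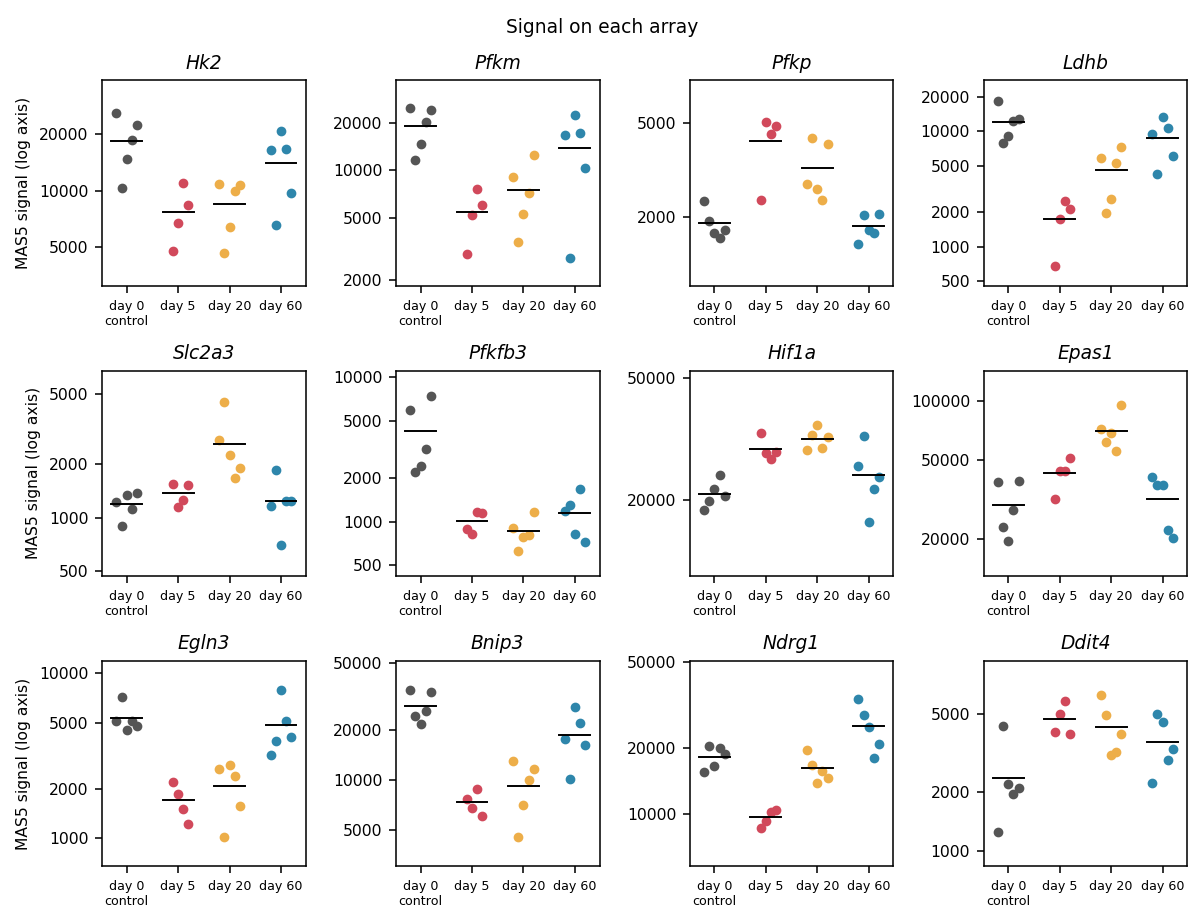
MAS5 signal (y axis, log scale) on each array for 12 genes in the day 0 control (5 arrays), day 5 (4), day 20 (5) and day 60 (5), with black bars at group means. Pfkm and Pfkp move in opposite directions, Pfkfb3 stays below all controls on day 60, and Egln3, Bnip3 and Ndrg1 are lowest on day 5 by group mean and higher again on day 60.

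Between aldolase and pyruvate, Tpi1 was called on day 5, Pkm on day 20 and Pgk1 and Pgam1 on neither. Tpi1, which interconverts the triose phosphates, fell on day 5 (log2 -0.99 ± 0.36, adjusted p 0.0372), from 20391 to 37834 in the controls to 9734 to 20484, and this call was lost without control A, D or E or day 5 B, C or E (adjusted p up to 0.120). Pgk1, the first step that makes ATP, changed by log2 -0.38, -0.39 and -0.32 on days 5, 20 and 60 and did not pass. Pgam1, which moves the phosphate of phosphoglycerate, was the one of these with a positive estimate on day 5 (log2 0.42 ± 0.18, adjusted p 0.0759), and it did not pass on any day. Pkm, which makes pyruvate, was lower only on day 20 (log2 -0.75 ± 0.28, adjusted p 0.0485), a call lost in 12 of 19 omissions of 1 array (adjusted p up to 0.144, without control A). Gapdh, often used as a reference gene, had mean signals on its 3′ control probe set of 58427 ± 11753 (SD, n = 5) in control, 35950 ± 9167 (n = 4) on day 5, 40762 ± 12901 (n = 5) on day 20 and 45695 ± 26211 (n = 5) on day 60. With the control probe sets kept in the fit its log2 changes were -0.71, -0.56 and -0.57 with adjusted p of 0.158, 0.257 and 0.449.

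Lactate dehydrogenase is a tetramer of the Ldha subunit, typical of fast muscle, and the Ldhb subunit, typical of heart and oxidative tissue. Ldhb had the largest fall of the 28 genes on day 5. Its signals were 18549, 7912, 9178, 12418 and 12774 in the controls, 686, 1750, 2475 and 2111 on day 5, 5865, 1974, 2590, 5315 and 7273 on day 20 and 9594, 4291, 13384, 10725 and 6145 on day 60. All arrays of days 5 and 20 were below all controls, day 5 by the wider gap, and 3 of the 5 arrays of day 60 lay within the control range. The fall was 6.92-fold on day 5 (log2 -2.79 ± 0.41, adjusted p 3.68e-05) and 2.79-fold on day 20 (log2 -1.48 ± 0.38, adjusted p 0.00666). Ldha ranged from 26647 to 57787 in the controls and from 16863 to 28199 on day 5, and was 1.91-fold lower (log2 -0.93 ± 0.32, adjusted p 0.0292). That call was lost without control A, control E, day 5 B or day 5 C (adjusted p up to 0.0848), and on day 20 Ldha did not pass (log2 -0.75 ± 0.30, adjusted p 0.0668).

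Because sister forms are measured on the same array, the log2 ratio of their signals gives the unequal change between them. The difference of this ratio from control was tested for 9 pairs on 3 days by a two-sided exact permutation test over arrays, and 10 of the 27 tests had a Benjamini-Hochberg adjusted p under 0.05. The pairs were chosen with earlier results of these data known, and the smallest p the design allows is 0.00794. Pfkp over Pfkm shifted by log2 2.88 ± 0.26 SE on day 5 and 2.12 ± 0.43 on day 20, and Hk1 over Hk2 by 1.59 ± 0.35 and 1.41 ± 0.39, with an exact permutation p of 0.00794 (adjusted p 0.0268) in each and no overlap of arrays with control. Pfkp over Pfkl shifted by 1.28 ± 0.37 and 0.72 ± 0.21 (exact permutation p 0.0159, adjusted p 0.0429 in both), with overlap of arrays with control on both days. Each ratio rests on the chosen probe set of each form, and no other probe set was tried for the ratios. For single genes on day 20, the mean of all probe sets gave log2 0.08 for Pfkp, -0.30 for Pfkl and 0.15 for Hk1. Ldha over Ldhb shifted by 1.86 ± 0.31 on day 5 (exact permutation p 0.00794, adjusted p 0.0268) and by 0.73 ± 0.25 on day 20 (exact permutation p 0.0317, adjusted p 0.0779). For aldolase, Aldoa over Aldoc changed by 0.66 ± 0.41 on day 5 and 0.94 ± 0.37 on day 20, past the threshold on neither. On day 60 none of these 5 ratios passed, with shifts between 0.10 and 0.65, but without day 60 B Aldoa over Aldoc shifted by 1.06 (exact permutation, adjusted p 0.039). With the array of conflicting labels counted as a control, the 10 ratios kept their direction and none was past the threshold (exact permutation, adjusted p 0.103 to 0.117).

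**Figure D3:**
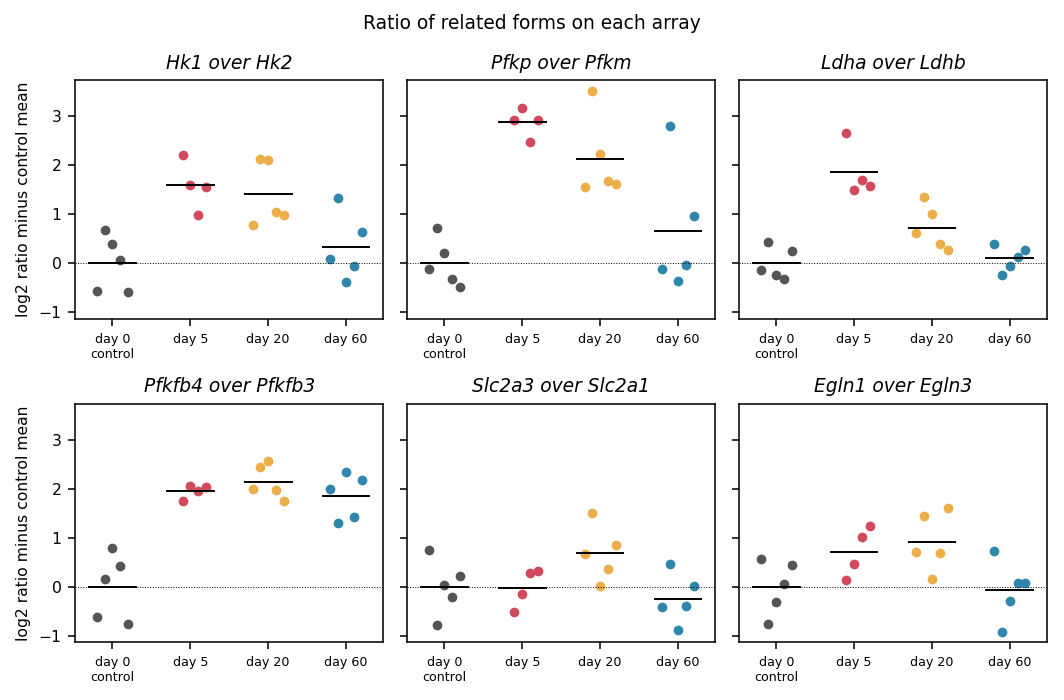
Log2 ratio of the signals (+ 100) of related forms on each array, minus the mean of the control arrays (y axis), for 6 of the 9 pairs in the day 0 control (5 arrays), day 5 (4), day 20 (5) and day 60 (5), with black bars at group means. Hk1 over Hk2, Pfkp over Pfkm and Ldha over Ldhb return toward 0 by day 60, while Pfkfb4 over Pfkfb3 stays near 2 on all 3 days.

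Of the transporters, only Slc2a3, a high-affinity glucose transporter of neurons, platelets and some leukocytes, passed, and only on day 20. Its signals were 1232, 892, 1340, 1115 and 1372 in the controls, 1551, 1156, 1261 and 1536 on day 5, 2746, 4532, 2255, 1673 and 1908 on day 20 and 1157, 1857, 700, 1244 and 1235 on day 60. Every day 20 array was above every control and every day 5 array. The rise on day 20 was 2.01-fold (log2 1.0 ± 0.24, adjusted p 0.00311), while day 5 differed from control by log2 0.20 ± 0.25. Markers of neutrophils, which also use this transporter, were called higher on the same day for 4 of 6 tested (S100a8, S100a9, Csf3r and Il1b), while Ltf was lower. Over all genes tested, 15.6% were called higher and 14.5% lower on day 20. The summed signal of the 8 neutrophil markers with a value was 7956 to 17019 in the controls, 5188 to 17199 on day 5, 7508 to 27594 on day 20 and 8056 to 14385 on day 60. It was highest on day 20 A, B and C, the arrays with the highest Slc2a3 of that group. The order differed in the controls and on day 5. Control B had the highest control sum (17019) but the lowest Slc2a3 (892), and day 5 C the highest sum of its group (17199) but the lowest Slc2a3 (1156). Day 20 E had a sum of 7508, below every control, and an Slc2a3 signal of 1908, above every control. The part of neutrophils in the rise of Slc2a3 was not tested. Slc2a1, the widely expressed glucose transporter and a classic HIF target, did not pass on its chosen probe set (log2 0.21, 0.32 and 0.25 on days 5, 20 and 60). A dimmer probe set of Slc2a1, with a mean of 406 in control and 660 on day 5, was higher on day 5 when all probe sets were tested (log2 0.59, adjusted p 0.0311). Slc16a3, which exports lactate, had group means between 360 and 459, near or below the median signal of the arrays (406 to 569), and did not pass. Slc2a3 over Slc2a1 shifted by 0.69 ± 0.36 on day 20, short of the threshold (exact permutation p 0.0952, adjusted p 0.171).

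The largest and longest change among the regulators was that of Pfkfb3, whose enzyme makes fructose 2,6-bisphosphate, the main activator of phosphofructokinase. It gave 5934, 2198, 2436, 3200 and 7427 in the controls, 887, 817, 1174 and 1148 on day 5, 903, 630, 788, 807 and 1173 on day 20 and 1184, 1297, 821, 1699 and 723 on day 60. Every array of the 3 days lay below the lowest control, although the controls themselves spread widely. It was 3.54-fold lower on day 5 (log2 -1.82 ± 0.31, adjusted p 0.000145), 4.10-fold lower on day 20 (log2 -2.04 ± 0.29, adjusted p 2.79e-05) and 3.24-fold lower on day 60 (log2 -1.70 ± 0.29, adjusted p 0.0111). The day 60 call was kept in all 19 omissions of 1 array but not in a fit of only the compared groups (adjusted p 0.115). Pfkfb4, a related enzyme, changed by log2 0.13, 0.11 and 0.15 and did not pass. The ratio of Pfkfb4 to Pfkfb3 was higher by log2 1.95 ± 0.31, 2.14 ± 0.34 and 1.85 ± 0.36 on days 5, 20 and 60, with no overlap of arrays with control (exact permutation p 0.00794, adjusted p 0.0268 each).

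Pdk1 makes the kinase that keeps pyruvate out of the mitochondrial citric acid cycle, and its probe sets disagreed. The chosen one read 7388, 3394, 5078, 4899 and 7678 in the controls, 1174, 1758, 2524 and 2244 on day 5, 2106, 1095, 1516, 2129 and 2239 on day 20 and 4654, 2020, 4863, 5477 and 3138 on day 60. All arrays of days 5 and 20 were below all controls, a fall of 2.84-fold (log2 -1.51 ± 0.30, adjusted p 0.000682) and 2.99-fold (log2 -1.58 ± 0.28, adjusted p 0.000306). The next brightest probe set of Pdk1 had group means of 3237, 4518, 2816 and 2190 in control and on days 5, 20 and 60, and did not pass on day 5 (log2 0.33, adjusted p 0.401) or day 20 (log2 -0.24, adjusted p 0.539). From day 5 to day 60 these 2 probe sets were called in opposite directions, log2 1.0 (adjusted p 0.0208) and -0.90 (adjusted p 0.0275), when all probe sets were tested. With the mean of all its probe sets Pdk1 passed on neither day. Whether the probe sets read different transcripts was not tested.

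Both HIF alpha subunits rose on day 20 and Hif1a also on day 5. Hif1a gave 18620, 19868, 21808, 24273 and 20756 in the controls, 33283, 28536, 27374 and 28798 on day 5, 29137, 32697, 35356, 29642 and 32194 on day 20 and 25944, 32346, 17002, 21775 and 23842 on day 60. All arrays of days 5 and 20 were above all controls, although the step was small, 1.40-fold on day 5 (log2 0.49 ± 0.14, adjusted p 0.0134) and 1.51-fold on day 20 (log2 0.59 ± 0.14, adjusted p 0.00258). The day 5 call was lost with the mean of all probe sets of Hif1a (log2 0.27, adjusted p 0.0953). Epas1 makes HIF-2 alpha, which is abundant in endothelium. Its signals were 38976, 22898, 19397, 28093 and 39343 in the controls, 31852, 44309, 44332 and 51645 on day 5, 72354, 61704, 69083, 55963 and 95418 on day 20 and 41098, 37438, 37711, 22272 and 20271 on day 60. Every day 20 array was above every other array of the 4 groups, a rise of 2.43-fold over control (log2 1.28 ± 0.23, adjusted p 0.000342). On day 5 it did not pass (log2 0.57 ± 0.24, adjusted p 0.0819), but a dimmer probe set of Epas1 rose on both days when all probe sets were tested (log2 1.3 and 1.33, adjusted p 0.00237 and 0.00147). Epas1 over Hif1a shifted by 0.08 ± 0.31 on day 5 and 0.69 ± 0.27 on day 20, and neither passed (exact permutation p 0.802 and 0.0714).

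The prolyl hydroxylases are both oxygen sensors and, for Egln3 in particular, targets of HIF. Egln3 gave 5141, 7131, 4533, 5139 and 4795 in the controls, 2199, 1852, 1509 and 1226 on day 5, 2636, 1014, 2784, 2375 and 1578 on day 20 and 3183, 3876, 7921, 5148 and 4130 on day 60. Arrays of days 5 and 20 were all below the controls, and those of day 60 lay on both sides of the control range. It was 3.06-fold lower on day 5 (log2 -1.61 ± 0.27, adjusted p 0.000163) and 2.62-fold lower on day 20 (log2 -1.39 ± 0.26, adjusted p 0.000437). Egln1, the main hydroxylase in normal oxygen, was 1.86-fold lower on day 5 (log2 -0.90 ± 0.27, adjusted p 0.0158), with 3644 to 4705 against 5363 to 11234 in the controls. On day 20 Egln1 did not pass (log2 -0.47 ± 0.26, adjusted p 0.180). Egln1 over Egln3 shifted by 0.72 ± 0.35 and 0.92 ± 0.36 on days 5 and 20 and did not pass (exact permutation p 0.103 and 0.0397, adjusted p 0.174 and 0.0893).

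The other HIF targets went different ways. Bnip3, which marks mitochondria for removal, gave 34418, 24002, 21490, 25903 and 33599 in the controls, 7699, 6799, 8801 and 6098 on day 5, 12969, 4552, 7059, 10006 and 11639 on day 20 and 17535, 10128, 27234, 22008 and 16169 on day 60. No array of day 5 or day 20 reached the lowest control. Bnip3 was 3.73-fold lower on day 5 (log2 -1.90 ± 0.28, adjusted p 4.2e-05) and 3.14-fold lower on day 20 (log2 -1.65 ± 0.26, adjusted p 0.000107). Ndrg1, a stress-responsive gene of epithelium and Schwann cells, gave 15493, 20458, 16603, 20099 and 18748 in the controls, 8604, 9312, 10237 and 10391 on day 5, 19639, 16822, 13922, 15745 and 14666 on day 20 and 33632, 28412, 24933, 18030 and 21018 on day 60. The day 5 arrays were below all others, and day 60 was mostly above control. It was 1.88-fold lower on day 5 (log2 -0.91 ± 0.16, adjusted p 0.000191), did not pass on day 20 (log2 -0.18 ± 0.15, adjusted p 0.388) and had an estimate of log2 0.43 ± 0.15 on day 60 (adjusted p 0.142).

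Ddit4, which restrains mTORC1 signalling under stress, went the other way. Its signals were 1247, 4330, 2203, 1955 and 2095 in the controls, 4063, 5019, 5808 and 3979 on day 5, 6249, 4924, 3076, 3184 and 3960 on day 20 and 2214, 5035, 4580, 2928 and 3319 on day 60. Control B lay at the level of days 5 and 20, and the other controls lay below all arrays of those days. It was 2.09-fold higher on day 5 (log2 1.06 ± 0.29, adjusted p 0.00809) and 1.85-fold higher on day 20 (log2 0.89 ± 0.27, adjusted p 0.0185), the latter lost without control A or day 20 A (adjusted p up to 0.0621). Car9, a carbonic anhydrase that is among the most HIF-specific targets, had group means between 460 and 499, near the array medians, and changes of log2 -0.10, -0.06 and -0.11. Kdm3a, a histone demethylase, had group means between 2805 and 3043 and changes of log2 -0.06, 0.05 and 0.00. Neither passed on any day.

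Several of the genes changed again between the later days. From day 5 to day 20, 1 gene was higher and 1 lower, against 3.05% higher and 2.25% lower over all genes. Ndrg1 rose (log2 0.73 ± 0.16, adjusted p 0.00920) and Pgam1 fell (log2 -0.66 ± 0.18, adjusted p 0.0383), the latter lost without any of 8 arrays (day 5 B, C, D or E or day 20 A, B, D or E, adjusted p up to 0.123). Without day 60 B, which helps set the spread, 3 genes rose (Ndrg1, Ldhb and Slc2a3), and without day 20 B, day 20 D or day 60 C Ndrg1 and 1 of those 2 did. Over all genes, 513 rose without day 60 B, in place of 415. From day 20 to day 60, 5 genes rose (Aldoc, Pdk1, Egln3, Bnip3 and Ndrg1) and 5 fell (Hk1, Pfkp, Slc2a3, Hif1a and Epas1), against 11.0% higher and 11.2% lower over all genes. Epas1 fell by 1.19 on the log2 scale (SE 0.23, adjusted p 0.000998), Slc2a3 by 0.99 (SE 0.24, adjusted p 0.00466) and Pfkp by 0.75 (SE 0.20, adjusted p 0.00903). The calls of Pfkp and Hk1 were kept in each omission of 1 array. Both were lost with the mean of all probe sets (limma, log2 -0.18 and -0.35, adjusted p 0.387 and 0.0864). They were also lost without day 60 A, B and D (adjusted p 0.123 and 0.0580). In the same step Egln3 rose by log2 1.20 ± 0.26 (adjusted p 0.00229) and Bnip3 by 1.02 ± 0.26 (adjusted p 0.00875). Without day 60 B, 8 genes rose in this step, against 1402 of all genes in place of 1489. The calls of Aldoc and Hif1a were each lost in 5 omissions of 1 array (Aldoc without day 20 B, D or E or day 60 B or D, and Hif1a without day 20 B, C or E or day 60 C or D).

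From day 5 to day 60, 6 genes were higher and 3 lower, against 12.2% higher and 12.2% lower over all genes. The rises were Ldhb (log2 2.29 ± 0.41, adjusted p 0.000453), Egln3 (1.42 ± 0.27, adjusted p 0.000850), Ndrg1 (1.35 ± 0.16, adjusted p 6.1e-06), Bnip3 (1.27 ± 0.28, adjusted p 0.00269), Pdk1 and Aldoc. For the first 4 of these every day 60 array lay above every day 5 array. Pfkp fell by 1.10 on the log2 scale (SE 0.21, adjusted p 0.000739), Pgam1 by 0.62 (SE 0.18, adjusted p 0.0158) and Hk1 by 0.46 (SE 0.12, adjusted p 0.00895), with every day 60 array below every day 5 array. Without day 60 B, 10 genes rose, against 1713 of all genes in place of 1654. The call of Pgam1 was lost without day 5 B (adjusted p 0.0735), that of Pdk1 without day 5 B or day 60 D, and that of Aldoc without day 5 B, C, D or E or day 60 B or D.

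Genes of the same pathways outside the 31 were counted from 4 lists, which like the 31 were written with earlier results of these data known. Of 20 other genes of glycolysis and glucose use, 11 fell and 2 rose on day 5, 7 fell and 2 rose on day 20, and none passed on day 60 (limma). The shares over all genes tested, 17.5% lower and 16.8% higher on day 5, 14.5% and 15.6% on day 20 and 0.765% and 0.368% on day 60, stand beside the counts of all 4 lists. On day 5 the largest changes were falls of Gpd1, which links glycolysis to glycerol (log2 -2.26 ± 0.41, adjusted p 0.000302), of Pgam2, the muscle phosphoglycerate mutase (-1.84 ± 0.66, adjusted p 0.0368), and of Pdk4, another pyruvate dehydrogenase kinase (-1.52 ± 0.54, adjusted p 0.0336). On day 20 they were falls of Gpd1 (-1.97 ± 0.39) and of the lactate transporter Slc16a1 (-1.37 ± 0.24, adjusted p 0.000260) and a rise of Bpgm, which makes the 2,3-bisphosphoglycerate of red cells (1.35 ± 0.30, adjusted p 0.00212). Of 6 genes of the pentose phosphate pathway, 1 fell on day 5 and 3 on day 20, against the same shares, so that the day 5 count (16.7%) was at that of all genes. Tkt, transketolase, fell on both days (log2 -1.11 ± 0.32 and -1.58 ± 0.31), and on day 20 so did Pgd, the phosphogluconate dehydrogenase (-0.79 ± 0.25, adjusted p 0.0239), and Rpia, the ribose phosphate isomerase (-0.36 ± 0.13, adjusted p 0.0410). Of 9 other genes of the HIF pathway, 3 fell on day 5, which were Hif1an, the asparaginyl hydroxylase of HIF (log2 -1.34 ± 0.25, adjusted p 0.000447), Arnt, the partner of the alpha subunits (-0.70 ± 0.19, adjusted p 0.00809), and Egln2, the remaining prolyl hydroxylase (-0.57 ± 0.22, adjusted p 0.0494). On day 20 Hif1an (-1.14 ± 0.24, adjusted p 0.00126) and Arnt (-0.58 ± 0.18, adjusted p 0.0191) fell and Hif3a, a further alpha subunit, rose (0.48 ± 0.16, adjusted p 0.0291). On day 60, 1 of the 9 was lower, Cited2, which competes with HIF for its coactivators (-0.69 ± 0.16, adjusted p 0.0391).

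Of 28 other hypoxia targets, 8 were higher and 9 lower on day 5, and 5 were higher and 10 lower on day 20. The largest rises on day 5 were those of Igfbp3, which binds insulin-like growth factors (log2 3.84 ± 0.26), and Hmox1, the heme oxygenase of macrophages and stress (2.97 ± 0.29), and the largest fall was that of Ppp1r3c, which targets a phosphatase to glycogen (-2.34 ± 0.55, adjusted p 0.00275). On day 20 Igfbp3 (2.54 ± 0.25) and the collagen crosslinker Lox (1.89 ± 0.27) rose and Stc2, a secreted glycoprotein, fell (-1.77 ± 0.21). On day 60, 2 of the 28 were lower, against 0.765% over all genes. They were Angptl4, an inhibitor of lipoprotein lipase (-1.36 ± 0.27, adjusted p 0.0197), and Stc2 (-1.32 ± 0.21, adjusted p 0.0111).

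Flank tissue holds several cell types, and marker genes of these moved on the same arrays. In bulk tissue, fewer cells of a type and less RNA per cell cannot be told apart. The summed signal of 15 skeletal muscle markers ranged from 878010 to 1409910 in the controls, 241120 to 869784 on day 5, 449271 to 1108190 on day 20 and 250718 to 1746570 on day 60. Of the 15, 8, 1 and 0 were called lower on days 5, 20 and 60, against 17.5%, 14.5% and 0.765% over all genes. The day 20 count (6.67%) was below the share of all genes. The 2 brightest, the myosins Myh1 and Myh4, had log2 changes of -0.57 (adjusted p 0.0167) and -0.98 (adjusted p 0.255) on day 5. The array with the lowest muscle sum on day 60, B, was also the lowest of its group for Aldoa, Pfkm, Hk2, Ldha, Tpi1, Pkm and Ldhb, and day 5 B, lowest of its group in muscle, was lowest there for Aldoa, Pfkm, Hk2, Ldha, Tpi1, Pkm and Ldhb. Other enzymes went the other way: day 60 B was the highest of its group for Aldoc, Pgam1 and Pfkl. Day 5 B was the highest of its group for Pgk1, Pgam1 and Pfkl, although day 60 B was the lowest for Pgk1. The part of muscle content in the falls of the enzymes was not tested.

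Other cell types moved as well. The summed signal of 9 adipocyte markers was 281332 to 540585 in the controls and 168911 to 220303 on day 5, and 8 of the 9 were called lower on days 5 and 20. That of 10 markers of mammary and glandular epithelium went from 70013 to 88028 in the controls to 8748 to 11864 on day 5, 6772 to 11459 on day 20 and 26275 to 63782 on day 60. The sum of 12 endothelial markers, by contrast, was 15572 to 24019 in the controls, 67334 to 83528 on day 5, 54449 to 91646 on day 20 and 18368 to 32244 on day 60, and 11 and 12 of the 12 were called higher on days 5 and 20. Cdh5, the cadherin of endothelial junctions, rose by log2 2.52 on day 5 and 2.11 on day 20. Macrophage markers summed to 54366 to 115964 in the controls and 218757 to 296375 on day 5, with 9 of 11 tested called higher and 1 lower, and all 11 tested proliferation markers were higher on day 5. Beside these counts, 17.5% of all genes were called lower and 16.8% higher on day 5, and 14.5% and 15.6% on day 20. No marker was at 0 on any assigned array, and the parts of these cell types in the changes of the 28 genes were not tested.

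**Figure D4:**
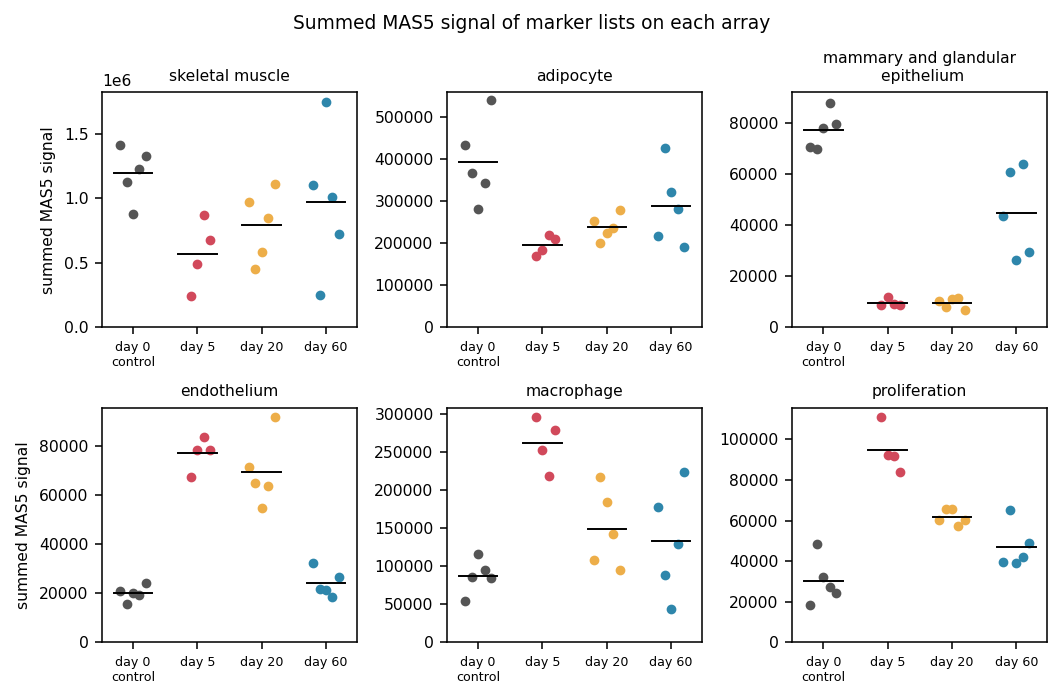
Summed MAS5 signal of 6 marker lists (y axis, from 0) on each array of the day 0 control (5 arrays), day 5 (4), day 20 (5) and day 60 (5), with black bars at group means. Muscle, adipocyte and glandular sums are lower on day 5, endothelial, macrophage and proliferation sums are higher, and day 60 B has the lowest muscle sum of its group.

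Across the series no 2 arrays held identical values and Spearman correlations between arrays ranged from 0.880 to 0.957. The 3′ to 5′ signal ratio of the Actb control probe sets, which grows with RNA breakdown, was 4.15 to 9.12 in the controls, 2.95 to 7.31 on day 5, 2.60 to 7.56 on day 20 and 4.32 to 14.0 on day 60, where arrays A, B and D read 14.0, 10.4 and 10.9. On 2 of the 4 day 5 arrays and 3 of the 5 day 20 arrays it lay below the lowest control. With this ratio as a covariate, 10 genes were lower and 5 higher on day 5 and 6 lower and 5 higher on day 20. Over all genes, 2132 were then lower and 2204 higher on day 5, in place of 2373 and 2285. On day 20, 1649 were lower and 1915 higher, in place of 1974 and 2123. The covariate ended 10 of the 54 calls over the 6 comparisons and reversed none. The calls that ended were those of Aldoa, Tpi1 and Ldha on day 5 (adjusted p 0.0783, 0.0707 and 0.0683), Hk2, Pfkm, Pkm and Ddit4 on day 20 (0.0668, 0.0778, 0.149 and 0.105), Pdk1 on day 60 against days 20 and 5 (0.0984 and 0.109) and Aldoc on day 60 against day 5 (0.0587). Epas1 passed on day 5 in that fit (log2 0.76, adjusted p 0.0192). Without day 60 A, B and D, 3 genes fell from day 20 to day 60 in place of 5, and over all genes 1034 in place of 1522.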

How the data were processed

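Affymetrix Mouse Genome 430 2.0 arrays, 20 in all, were hybridised with RNA of mouse flank tissue. Per probe set and array the authors deposited 1 linear intensity, the MAS5 signal, made with MAS5 in GCOS 1.3 and a scaling factor of 1500 per the labels, and the main setting added no scaling to it. Of 45101 probe sets, 34958 had 1 gene symbol in the platform annotation, 932 several and 9211 none, and 64 were AFFX controls. A gene was read from its probe set of 1 symbol of highest mean signal on the 19 assigned arrays, AFFX controls left out, and tested where that mean was at least 300.

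Tests used R 4.3.3 with limma 3.58.1 on log2(signal + 100). All 19 arrays entered 1 fit of group means (lmFit, eBayes with a trend), with 6 two-sided contrasts and Benjamini-Hochberg adjustment over 13594 genes. The fit was tested on simulated data with known changes. Ratios of related forms were tested by exact permutation over arrays. The 31 genes were named in full, passing or not. Up to 3 called genes with the largest change were named from each pathway list in each comparison with control, and the brightest from marker lists, together with probe sets of a gene that disagreed. Some further markers, the dimmer probe sets of Slc2a1 and Epas1 and the ratio pairs were chosen after values were seen. The genes and lists were chosen with earlier results of these data known. Promoters were matched by symbol (28 of 31). The array names no genome build, so probe sets were given no coordinates.

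Alternatives covered the pseudocount, the minimum signal, quantile and 75th percentile scaling, array weights, eBayes with no trend, fits restricted to the compared groups, the choice of probe set, AFFX controls, the letter as a block, the unassigned array, the Actb ratio as a covariate, the omission of 3 day 60 arrays and of each array in turn. Alternatives for the ratios were added after seeing the data. Every column of the table was used.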

Additional observations from a re-analysis of the deposited data

Results flagged for a closer look

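Dixon's test on the signals of each gene in each group was run 112 times and marked 8 values, where chance marks about 1 in 20. Day 5 B stood apart from the other day 5 arrays for 3 enzymes. It read 1594 for Pfkl (others 1159 to 1171), 2374 for Pfkp (others 4499 to 5028) and 11412 for Pgam1 (others 7817 to 8050). Day 60 B read 3094 for Pkm, below 6452 to 8572 on the other day 60 arrays. Among the controls, array C read 38731 for Pgk1 (others 53868 to 61613), array A read 704 for Slc16a3 (others 375 to 424), and array B read 946 for Pfkfb4 (others 1487 to 1709) and 7131 for Egln3 (others 4533 to 5141).

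The array with conflicting labels, titled day 5 but sourced as a day 0 control, entered no comparison. It lay above all 5 controls for 7 of the 28 genes, below all of them for 14 and within the range of the 4 day 5 arrays for 20. Above the controls were Hk1 (4381, controls 2537 to 3390), Pfkp (2927, controls 1645 to 2352), Slc2a1 (7375, controls 2087 to 4644), Slc2a3 (1565, controls 892 to 1372), Hif1a (32276, controls 18620 to 24273), Ddit4 (4444, controls 1247 to 4330) and Car9 (710, controls 404 to 552). Its endothelial marker sum was 75276 (day 5 67334 to 83528, controls 15572 to 24019). The glandular sum was 10271 (day 5 8748 to 11864, controls 70013 to 88028). For macrophages it was 243273 (day 5 218757 to 296375, controls 54366 to 115964). Proliferation (112024), red cell (20940) and epidermis (76868) sums lay above both groups. Which label is right was not tested.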

How the results depend on the processing

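Of 54 calls of single genes over the 6 comparisons, 39 passed in each omission of 1 array and 25 passed under every alternative run. The alternative that ended most calls counted the array with conflicting labels as a control and ended 22. On day 5, 2 genes were then higher and 7 lower, against 1543 and 1269 of all 13594 genes, in place of 2285 and 2373. On day 20, 5 were lower, against 1034 of all genes in place of 1974. On day 60, 0 were lower, against 0 of all genes in place of 104. From day 20 to day 60, 2 were higher (1200 over all genes in place of 1489). From day 5 to day 20, 0 were lower (125 in place of 306). Counted as day 5, the array with conflicting labels ended 0 of the 54 calls. It gave 4 higher genes from day 5 to day 20 (576 over all genes in place of 415). On day 60, 2 were then lower (116 in place of 104). The endothelial, glandular and macrophage sums of this array lay within the day 5 range and outside that of the controls. Array weights gave 3 higher and 2 lower genes from day 5 to day 20 and 2 lower on day 60, as did a pseudocount of 500 and quantile normalization for day 60 (2 each). A fit of only the compared groups gave 2 higher genes from day 5 to day 20 and 0 lower on day 60. Over all genes, from day 5 to day 20, array weights gave 934 higher and 819 lower. The fit of only the compared groups gave 582 and 493, in place of 415 and 306. The mean of all probe sets of a gene ended 13 calls, among them those of Hif1a on day 5 and of Pfkp, Hk1 and Pkm on day 20 (adjusted p 0.0953, 0.688, 0.458 and 0.0549) and both of Pdk1 against control (0.754 and 0.0851). In that setting 0 genes were higher from day 5 to day 20, 3 were higher and 3 lower from day 20 to day 60, and 5 were lower from day 5 to day 60. Over all genes that setting gave 269 higher from day 5 to day 20, in place of 415. It gave 1212 higher and 1388 lower from day 20 to day 60, in place of 1489 and 1522. From day 5 to day 60 it gave 1568 lower, in place of 1658. There the day 60 against day 5 value of Pdk1 reversed to log2 -0.10 (adjusted p 0.807), as its probe sets disagree. The Actb ratio as a covariate ended 10 calls, with 10 lower genes on day 5 and 6 on day 20. Over all genes it gave 2132 lower on day 5 and 1649 on day 20, in place of 2373 and 1974. Without day 60 A, B and D, 7 calls ended and 3 genes were lower from day 20 to day 60. Over all genes, 1034 were then lower in that step, in place of 1522. The labels do not say that the letters of the titles pair the arrays. Over all genes tested, deviations of the same letter correlated with a median r of 0.02 over 27 pairs (-0.27 to 0.35), against -0.03 for other letters. Such a median cannot exclude pairing of some arrays or for single genes. Array B was the lowest of every group for Hk2, Pfkm, Ldhb and Pdk1, though not for Aldoa or Bnip3. With the letter as a replicate block, 4 of the 54 calls ended and 8 were gained. From day 5 to day 20, 2 genes were then higher and 0 lower (339 and 216 over all genes, in place of 415 and 306).

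Omission of each array in turn gave 3 to 5 higher and 10 to 13 lower genes on day 5, 4 to 6 and 6 to 12 on day 20, 0 to 1 and 1 to 2 on day 60, 1 to 3 and 0 to 1 from day 5 to day 20, 4 to 8 and 4 to 5 from day 20 to day 60, and 4 to 10 and 2 to 4 from day 5 to day 60. The omissions gave, over all genes, 1972 to 2389 higher and 1867 to 2557 lower on day 5. They gave 1725 to 2234 and 1448 to 2170 on day 20, and 4 to 326 and 17 to 267 on day 60. From day 5 to day 20 they gave 239 to 513 and 179 to 363. From day 20 to day 60 they gave 1123 to 1616 and 1186 to 1617, and from day 5 to day 60 1101 to 1771 and 1326 to 1738. Counted over all genes, median log2 changes stayed close to 0 under both other scalings. None of the 10 called ratios reversed in an omission of 1 array or with another pseudocount. All 10 lost the threshold with the conflicting array as a control (Hk1 over Hk2 on day 5 from log2 1.59 to 1.24), while omission raises the smallest p the design allows, and each was past the threshold in some omissions only, or in none for Hk1 over Hk2 on day 5 (adjusted p up to 0.0857). The cause of the other shifts was not tested. Genes near the array median, Car9 and Slc16a3, leave least room to see a fall.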
